A study of Mus musculus with 48 samples.

Results

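Csf1r, Csf2ra, Adgre1, Itgam, Cd68, Lyz2, Mertk, Spi1 and Maf are genes by which a mouse macrophage is commonly recognised, and their transcripts were followed here through 8 macrophage populations with and without the compound AP-3-84. They were chosen by gene symbol, with earlier results of these data known. They are 9 of the 51789 gene IDs in the count table. Each symbol matched one ID, and 9 of 9 passed the filter on low counts in both sets of libraries, peritoneal and bone marrow-derived. RNA was read from the 3′ end of transcripts (QuantSeq) in 48 libraries, 3 in each of 16 groups, and every population was exposed for 4 h either to 10 µM AP-3-84 or to the DMSO vehicle.

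All mice were on the C57BL/6 background. Ascites macrophages were washed from the peritoneum 45 days after injection of ID8 ovarian tumour cells, in mice whose genotype label is B6(Cg)-Tyrc-2J/J. Thioglycollate macrophages came from wild-type C57BL/6 mice 4 days after 1 ml of 3% thioglycollate. Host genotype and source of the cells therefore cannot be told apart between these populations. Both were taken with magnetic beads against F4/80, the protein that Adgre1 encodes, so Adgre1 is not independent of how those cells were chosen. The other 6 populations were grown from bone marrow stem cells of wild-type or p53 KO mice in 10 ng/mL M-CSF for 6 days and either left so (M0) or given a further 24 h of 100 ng/mL LPS with 50 ng/mL IFN-γ (M1) or of 10 ng/mL IL-4 with 10 ng/mL IL-13 (M2). M-CSF is a ligand of the Csf1r protein, so these cultures were carried by the receptor under study. In one field all of these cultures are entered as wild-type, whereas titles and descriptions separate the p53 KO from the wild type, and the groups follow the latter. Nothing in the labels says that the 3 libraries of a group came from separate animals or cultures, so p-values measure only the spread between these libraries, which may be technical. Age and sex of the animals are not in the labels.

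Macrophages need a colony-stimulating factor signal to survive and mature. The Csf1r receptor takes it from M-CSF or IL-34 and the Csf2ra chain, paired with a shared beta chain, takes it from GM-CSF. PU.1, the product of Spi1, is the ETS-family transcription factor that opens myeloid enhancers, among them those of Csf1r and Itgam, and c-Maf adds to a mature, anti-inflammatory program. At the cell surface F4/80 is an adhesion G protein-coupled receptor, CD11b (Itgam) is the alpha chain of complement receptor 3 and MerTK is a receptor tyrosine kinase for the uptake of apoptotic cells. CD68 is a heavily glycosylated lysosomal membrane protein and lysozyme M (Lyz2) is a secreted enzyme that cleaves bacterial cell walls.

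The 12 peritoneal libraries held 15532373 to 19417581 counts each and the 36 grown from bone marrow held 3081707 to 4645148. These 2 sets were fitted apart and no test was made between them. Levels are CPM, counts scaled to library size, after TMM correction within each set, and a gene was called changed where the adjusted p of edgeR's quasi-likelihood test, with Benjamini-Hochberg adjustment over all genes tested, was under 0.05. In p53 KO libraries Trp53 lay between 2.70 and 9.11 CPM, against 4.79 to 13.2 in the wild type, which overlap, and the deleted part of the gene is not given. Cdkn1a, a direct p53 target, separated the genotypes without overlap, with 34.1 to 292 CPM over 18 p53 KO libraries against 555 to 1119 CPM over 18 of wild type. Of the 48 libraries, 11 correlated better with the mean of another group than with their own, 10 of these with the other treatment of the same population. One of them was p53 KO M0 AP-3-84 replicate 3 (r = 0.852 with its own group and 0.892 with p53 KO M0 vehicle, over 2000 genes). Wild-type M2 vehicle replicate 1 (r = 0.855) and p53 KO M2 vehicle replicate 3 (r = 0.889) also stood apart from their groups, and summed CPM of 10 neutrophil marker genes was 4039 and 3360 in these libraries, against 352 to 642 in the other 4 M2 vehicle libraries. A further library, p53 KO M2 vehicle replicate 1, correlated at 0.885 with its own group and at 0.959 with p53 KO M2 with AP-3-84. The M2 libraries that stood apart, where left out together below, are the pair with high neutrophil marker sums, and values without the other 2 are given where a call changed.

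The growth factor receptor gene Csf1r differed most in the p53 KO M0 cultures. Csf1r in vehicle stood at 4947, 6812 and 8054 CPM in p53 KO M0, above every other vehicle library. The next populations by mean were wild-type M2 (2142, 2265 and 3315 CPM), ascites (2175, 2111 and 2184 CPM) and p53 KO M2 (2447, 1870.3 and 1268 CPM). Wild-type M0 (1321, 1884 and 2192 CPM), wild-type M1 (1554, 1461 and 1956 CPM) and p53 KO M1 (1512, 1332 and 1663 CPM) followed, and from wild-type M2 down to p53 KO M1 each neighbour's range overlapped the next. Thioglycollate macrophages were lowest, at 1124, 1122 and 1107 CPM, below all other vehicle libraries. In GENCODE M21 on GRCm38, which need not be the build behind the counts, Csf1r is a protein-coding gene at chr18:61100598-61132149 on the plus strand.

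Csf2ra, the GM-CSF receptor alpha chain, followed another order. It was highest in wild-type M2, at 353, 310.0 and 312 CPM, and in p53 KO M2, at 321, 209.7 and 126 CPM. Wild-type M1 (162, 178 and 211 CPM) and wild-type M0 (164, 189 and 161 CPM) came next and overlapped each other and p53 KO M2. The p53 KO M1 libraries (90.4, 95.7 and 122 CPM) overlapped p53 KO M0 (67.3, 115 and 74.7 CPM), which in turn overlapped thioglycollate (70, 70.6 and 77.6 CPM), and the ascites libraries were lowest (58.5, 64.9 and 69.7 CPM). So the 2 receptor genes ran in different orders: p53 KO M0 was highest for Csf1r and among the lower populations for Csf2ra. Levels of peritoneal and bone marrow-derived populations are set side by side only, since the sets were scaled apart. With both sets scaled together the order of all 8 means stayed the same for 6 of the 9 genes, and with total counts alone for 3 of 9.

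Transcripts of surface proteins used to gate macrophages moved with polarization. Adgre1 was highest in wild-type M1 (2729, 2746 and 2359 CPM), then in p53 KO M1 (1261, 1614 and 1200.4 CPM), with no overlap between these or with the wild-type M0 libraries below (960.1, 1184 and 1148 CPM). Wild-type M2 was uneven, at 1421, 624 and 580.4 CPM, and its highest library is the one that stood apart. In p53 KO M0 (485, 504 and 466 CPM) and p53 KO M2 (466, 379 and 486 CPM) the ranges overlapped. Thioglycollate (249.9, 254 and 229 CPM) and ascites (234, 241 and 243 CPM) libraries were lowest although they had been sorted on this protein. Itgam was likewise highest in wild-type M1 (840.0, 786 and 856 CPM), followed by p53 KO M1 (712, 669 and 450.4 CPM), wild-type M0 (447, 465 and 407 CPM) and ascites (431, 436 and 394 CPM). The lowest Itgam levels were in p53 KO M0 (217, 206 and 251 CPM) and p53 KO M2 (226, 240.1 and 219.5 CPM), which overlapped. Adgre1 lies at chr17:57358691-57483527 and Itgam at chr7:128062640-128118491, both on the plus strand.

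Cd68 ran against these surface genes. Thioglycollate (1657, 1717 and 1659 CPM) and wild-type M2 (1364, 1407 and 1858 CPM) were highest, above every other vehicle library. p53 KO M0 followed (1075, 1165 and 1255 CPM), and from there through p53 KO M2 (1229, 1144 and 691 CPM), ascites (751, 757 and 854 CPM), wild-type M0 (904, 674 and 691 CPM) and p53 KO M1 (718, 413 and 596 CPM) to wild-type M1 (498, 506 and 608 CPM) each range overlapped the next. Lyz2 was the most heavily counted of the 9, with wild-type M1 highest (37549, 39656 and 40297 CPM) and p53 KO M2 lowest and most scattered (13941, 5626 and 3091 CPM). The p53 KO M1 libraries held 11244, 20785 and 12342 CPM of Lyz2, and the other 5 vehicle populations lay between 20317 and 33815 CPM. Lyz2 shares 437 of 1234 stretches of 30 bases (35.4%) with its neighbour and near copy Lyz1, so counting could have split reads between them and its values are uncertain. Cd68 lies at chr11:69664213-69666153 and Lyz2 at chr10:117277331-117282321, both on the minus strand.

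Mertk had the widest range of the 9 among bone marrow-derived libraries, from 20.4 to 337 CPM (16.5-fold). In vehicle it was highest in p53 KO M0 (257, 309 and 337 CPM) and thioglycollate macrophages (269, 271 and 279.7 CPM), whose ranges overlapped, and then in ascites (205, 209 and 221 CPM). Wild-type M2 (45.6, 87.5 and 114 CPM), wild-type M0 (52, 62.1 and 85.4 CPM), p53 KO M2 (95.8, 56.3 and 35.2 CPM) and wild-type M1 (41.7, 35 and 55.1 CPM) overlapped in turn. p53 KO M1 was lowest, at 26.9, 32.7 and 23 CPM. Mertk lies at chr2:128698956-128802894 on the plus strand.

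Spi1 had the narrowest range of the 9 among bone marrow-derived libraries (3.14-fold from lowest to highest). Its vehicle levels lay between 299 and 538 CPM in all 18 bone marrow-derived vehicle libraries, with overlapping ranges from wild-type M0 (366, 457 and 510.4 CPM) to p53 KO M0 (355, 392 and 463 CPM), and were lower in ascites (269, 284 and 285 CPM) and in thioglycollate macrophages (192, 203 and 198 CPM). Maf was highest in p53 KO M0 (1102, 1039 and 923 CPM) and wild-type M0 (977, 1066 and 952 CPM), which overlapped. It stood at 917, 918 and 789 CPM in wild-type M1, at 418, 512 and 384 CPM in p53 KO M1 and at 429, 488 and 474 CPM in ascites. The M2 cultures were low but scattered, at 287, 118 and 115 CPM in wild type and 102, 141 and 454 CPM in p53 KO, and in each genotype the highest of these was the library that stood apart. Thioglycollate macrophages held 288, 265 and 299 CPM of Maf. Spi1 lies at chr2:91082390-91115756 on the plus strand and Maf at chr8:115682942-115707794 on the minus strand.

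**Figure D1:**
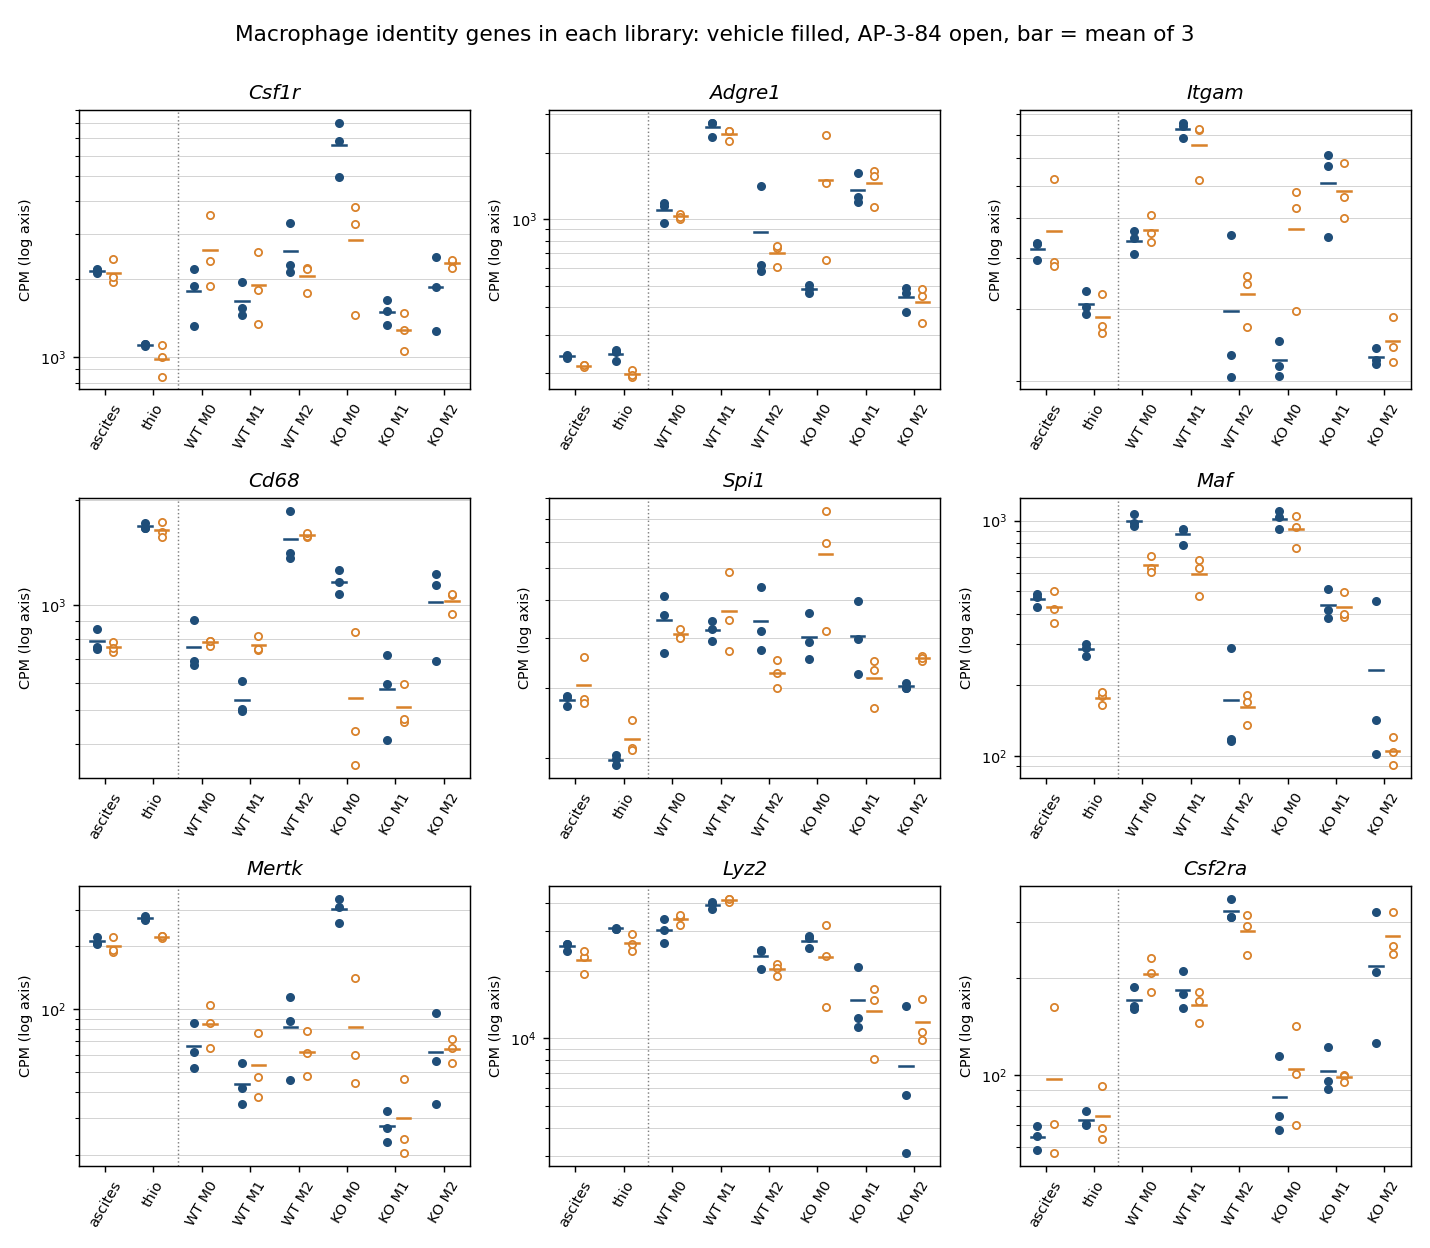
Level of each of the 9 genes in every library, in CPM on a log axis, with 1 panel per gene and the 8 populations along the x axis. Filled blue points are vehicle libraries, open orange points are AP-3-84 libraries and each bar is the mean of 3. In p53 KO M0, Csf1r and Mertk fall from 4947 to 8054 and 257 to 337 CPM in vehicle to 1452 to 3810.2 and 44.4 to 141 CPM with AP-3-84.

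PU.1 recognises a purine-rich core, and the letters GAGGAA, or their complement TTCCTC on the other strand, were searched in the 250 bases before the RefSeq transcription start of the genes (GRCm38.p6). Windows existed for 5 of the 9 genes (Itgam, Cd68, Mertk, Lyz2 and Csf2ra) and 3 of these 5 held the letters, against 7639 of 32851 mouse windows of that length (23.3%). The 3 windows are shown so that the letters can be read, and a link to Spi1 levels was not tested. Over the 36 bone marrow-derived libraries Pearson r of log2 CPM with Spi1 was 0.28 for Itgam, -0.28 for Cd68 and -0.12 for Csf2ra. It was 0.10 for Mertk and 0.42 for Lyz2, whose windows lack the letters. Capitals mark the matches and each sequence runs 5′ to 3′ on the strand of its gene. The first bases of the matches lie 84 and 15 bases before the start in Itgam, 225 in Cd68, and 14 and 8 in Csf2ra, where they adjoin.
Itgam, plus strand, chr7:128062390-128062639: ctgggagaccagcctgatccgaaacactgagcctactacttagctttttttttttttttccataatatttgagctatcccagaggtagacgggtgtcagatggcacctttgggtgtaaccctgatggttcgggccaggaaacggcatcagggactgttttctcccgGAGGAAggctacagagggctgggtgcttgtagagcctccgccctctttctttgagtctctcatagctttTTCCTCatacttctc
Cd68, minus strand, chr11:69666171-69666420: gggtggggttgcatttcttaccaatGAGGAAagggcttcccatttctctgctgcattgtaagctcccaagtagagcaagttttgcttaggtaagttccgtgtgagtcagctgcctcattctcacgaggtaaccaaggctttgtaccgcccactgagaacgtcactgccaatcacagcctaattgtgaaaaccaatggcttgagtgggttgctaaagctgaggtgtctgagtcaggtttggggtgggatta
Csf2ra, minus strand, chr19:61228419-61228668: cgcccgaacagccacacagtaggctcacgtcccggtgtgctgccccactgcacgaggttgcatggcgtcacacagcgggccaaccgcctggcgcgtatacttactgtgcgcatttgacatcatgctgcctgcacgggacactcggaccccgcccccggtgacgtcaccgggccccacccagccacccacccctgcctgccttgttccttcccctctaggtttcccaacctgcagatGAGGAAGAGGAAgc
No match in the Mertk and Lyz2 windows says only that these letters are not in them, and a match is not a bound site. Csf2ra itself lies at chr19:61223957-61228429 on the minus strand.

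AP-3-84 changed these genes in 2 of the 8 populations, p53 KO M0 and thioglycollate macrophages. In p53 KO M0, 6 of 9 genes were called (3 higher, 3 lower), where 20.7% of all genes tested were called. In thioglycollate macrophages 3 of 9 were called, all lower, where the background was 4.32%. edgeR called 0 of 9 in ascites (background 1.79%), in wild-type M0 (0.144%), in wild-type M1 (0.017%), in wild-type M2 (1.21%), in p53 KO M1 (0%) and in p53 KO M2 (0.0509%). At an unadjusted p under 0.05 these 6 populations gave 2, 0, 1, 1, 0 and 1 of 9 genes in that order. Over all genes that cutoff passed 1804 of 16955 in ascites. In the bone marrow-derived populations it passed 1107, 857, 1386, 206 and 1454 of 11779, in the same order. DESeq2 called 0 of the 9 in each of these 6 populations.

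In thioglycollate macrophages Maf went from 288, 265 and 299 CPM in vehicle to 179, 186 and 165 CPM with AP-3-84. The groups did not overlap, and the fall was 0.69 on the log2 scale (log2 fold change -0.69, SE 0.10, adjusted p = 0.000489). Adgre1 went from 249.9, 254 and 229 CPM to 207, 193 and 197 CPM, again without overlap (log2 fold change -0.30, SE 0.06, adjusted p = 0.00587). Mertk went from 269, 271 and 279.7 CPM to 219, 223 and 224 CPM (log2 fold change -0.30, SE 0.07, adjusted p = 0.0134), and its groups were apart as well. These were modest changes in tight groups: the fitted levels with AP-3-84 were 0.622, 0.814 and 0.813 of those in vehicle for Maf, Adgre1 and Mertk. Without thioglycollate vehicle replicate 3 Mertk was no longer called (adjusted p = 0.0682), and with all 48 libraries in one fit, which takes the spread of the bone marrow-derived cultures as well, none of the 3 was called (adjusted p = 0.754 for Maf and 1 for Adgre1 and Mertk). Csf1r (843, 1001 and 1119 CPM with AP-3-84), Itgam, Cd68, Spi1, Lyz2 and Csf2ra were not called. With the spread of the groups compared alone Lyz2 was called lower (-0.23, adjusted p = 0.0266). Without a filter on low counts Lyz2 (-0.22, adjusted p = 0.000237) and Csf1r (-0.19, adjusted p = 0.0438) were called. The median of the 9 log2 fold changes was -0.18, beside 0.03 over all genes tested. Summed CPM of 5 fibroblast genes was 18.4 to 29.3 in vehicle and 29.4 to 43.9 with AP-3-84 and that of the 3 monocyte genes Ly6c2, Ccr2 and Plac8 was 6.80 to 10.8 and 4.21 to 6.56, and their part in these results was not tested.

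Ascites macrophages showed no called change. Maf stood at 429, 488 and 474 CPM in vehicle and 503, 420.3 and 367 CPM with AP-3-84, and the groups overlapped. The difference in the Maf response between ascites and thioglycollate was 0.58 on the log2 scale (SE 0.13), with an unadjusted p of 0.000641 that did not pass over all genes (adjusted p = 0.184 in edgeR); without ascites AP-3-84 replicate 3 it did (adjusted p = 0.0235). edgeR called 0 of 9 genes for this difference in response, with a background of 0.118%, and DESeq2 also called 0. At an unadjusted p under 0.05 edgeR gave 2 of 9, where 1295 of all 16955 genes passed. Csf2ra in ascites rested on 1 library, at 163, 70.6 and 57.3 CPM with AP-3-84 against 58.5, 64.9 and 69.7 CPM in vehicle (log2 fold change 0.59, SE 0.36, adjusted p = 0.644).

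Maf also showed the largest uncalled differences in wild-type M0, wild-type M1 and p53 KO M2. In wild-type M0 it stood at 977, 1066 and 952 CPM in vehicle and 626, 706 and 603 CPM with AP-3-84 (log2 fold change -0.63, SE 0.34, adjusted p = 0.579). In wild-type M1 it stood at 917, 918 and 789 CPM in vehicle and 682, 629.9 and 476 CPM with AP-3-84 (log2 fold change -0.55, SE 0.34, adjusted p = 0.751). The groups did not overlap in either, but the differences did not pass the test, which shares its estimate of spread with all 36 libraries. With the spread taken from the groups compared alone, Maf was called in wild-type M0 (adjusted p = 0.0202) and M1 (0.0457), as was Cd68 in wild-type M1 (0.0362). In p53 KO M2 Maf stood at 102, 141 and 454 CPM in vehicle and 120.1, 103 and 91.4 CPM with AP-3-84 (log2 fold change -1.15, SE 0.35, adjusted p = 0.178), and the library that stood apart held the 454. Without both M2 vehicle libraries that stood apart that value was -0.21 (adjusted p = 0.903). Without p53 KO M2 vehicle replicate 1 instead, Maf and Lyz2 were called there (-1.50 and 1.44, adjusted p = 0.0100 and 0.00691). Cd68 in wild-type M1 stood at 498, 506 and 608 CPM in vehicle and 745, 748 and 815 CPM with AP-3-84, without overlap (log2 fold change 0.52, SE 0.22, adjusted p = 0.574). Spi1 in wild-type M2 stood at 373, 416 and 538 CPM in vehicle and 299, 328 and 353 CPM with AP-3-84, also without overlap (log2 fold change -0.44, SE 0.19, adjusted p = 0.329).

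**Figure D2:**
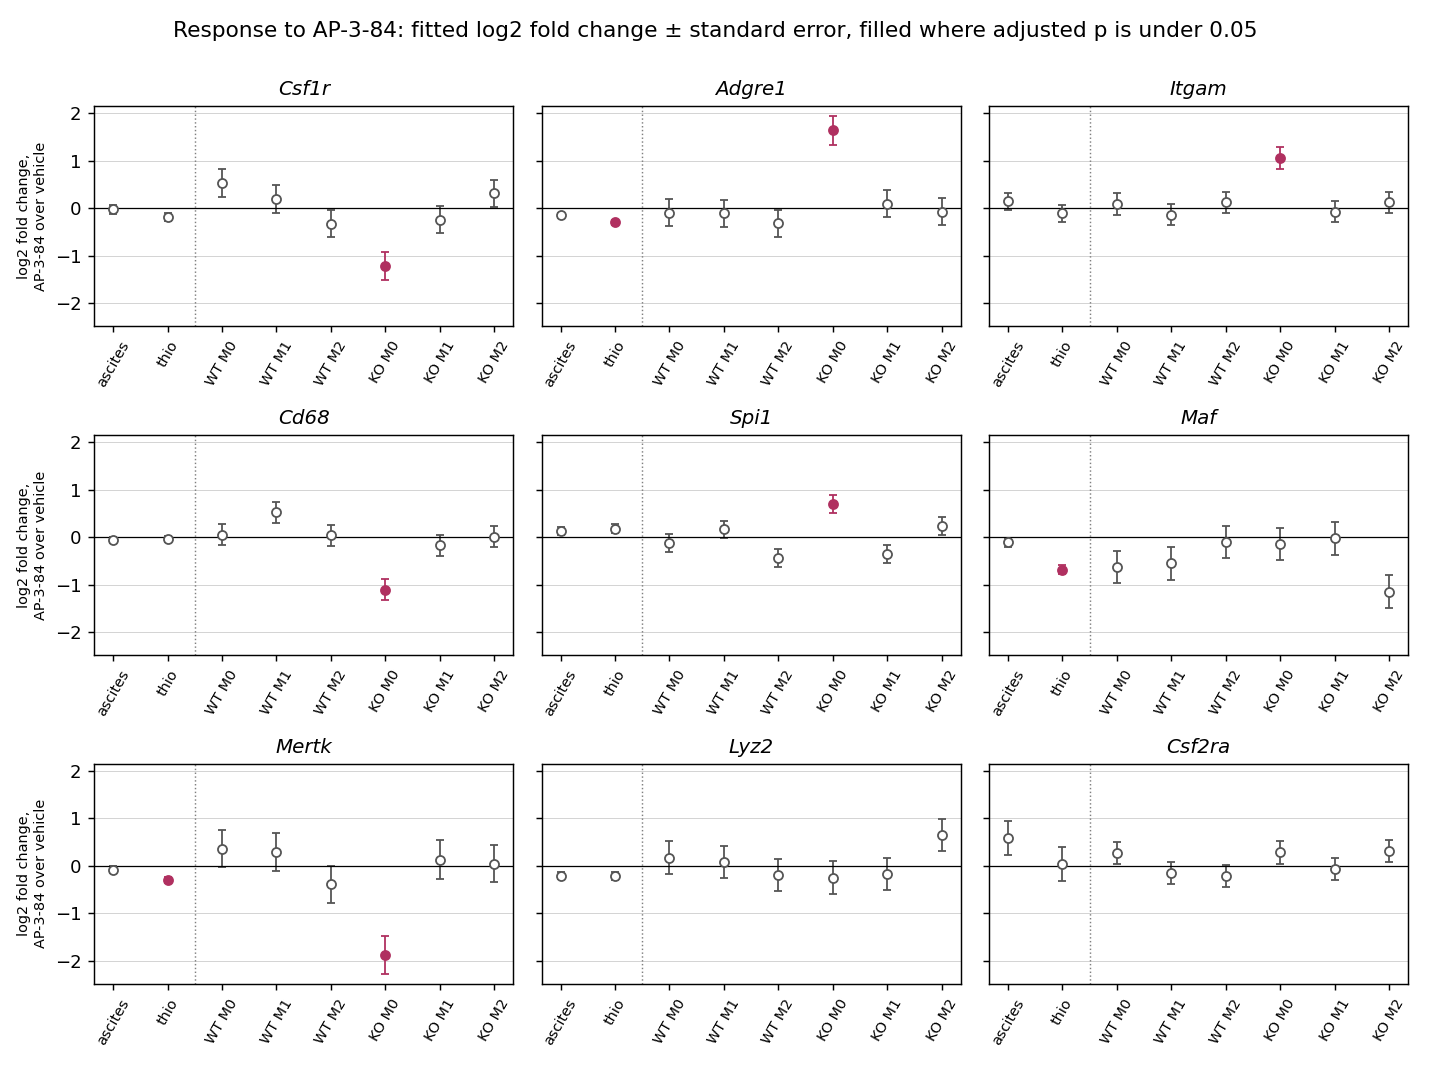
Log2 fold change of AP-3-84 over vehicle for each of the 9 genes in the 8 populations, with bars of 1 SE, filled where the adjusted p was under 0.05. Filled points appear in p53 KO M0 (from -1.88 for Mertk to 1.64 for Adgre1) and in thioglycollate macrophages (from -0.69 for Maf to -0.30).

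In p53 KO M0 cultures the Csf1r and Mertk transcripts fell with AP-3-84, while those of Itgam and Adgre1 rose. Csf1r fell from 4947, 6812 and 8054 CPM in vehicle to 3268, 1452 and 3810.2 CPM, without overlap (log2 fold change -1.22, SE 0.29, adjusted p = 0.00397). Mertk fell from 257, 309 and 337 CPM to 60.6, 44.4 and 141 CPM (log2 fold change -1.88, SE 0.39, adjusted p = 0.00127), also with the groups apart. Cd68 fell from 1075, 1165 and 1255 CPM to 438, 349.5 and 838 CPM (log2 fold change -1.10, SE 0.22, adjusted p = 0.000695). In each of these 3 genes AP-3-84 replicate 3 stayed nearest to the vehicle libraries. Adgre1 rose from 485, 504 and 466 CPM to 2408, 1467 and 657 CPM (log2 fold change 1.64, SE 0.30, adjusted p = 0.000293). Itgam rose from 217, 206 and 251 CPM to 581, 530.1 and 297 CPM (log2 fold change 1.06, SE 0.23, adjusted p = 0.00105). Here too the groups were apart and replicate 3 was the nearest to vehicle.

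Spi1, the PU.1 gene, was called higher although its groups overlapped: 355, 392 and 463 CPM in vehicle and 837, 696 and 416 CPM with AP-3-84 (log2 fold change 0.69, SE 0.19, adjusted p = 0.00932). Without AP-3-84 replicate 1 its adjusted p was 0.122, without AP-3-84 replicate 2 it was 0.0506 and without vehicle replicate 1 it was 0.0533. Maf (1049, 940.3 and 769 CPM with AP-3-84), Lyz2 (31810.3, 13826 and 23181 CPM) and Csf2ra (142, 101 and 69.9 CPM) overlapped their vehicle groups and were not called. The median of the 9 log2 fold changes was -0.15, beside -0.03 over all genes.

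Leaving out AP-3-84 replicate 3, the library nearest to p53 KO M0 vehicle, left the same 6 genes called and moved their values outward. As that library lay nearest to vehicle for these genes, the outward move follows from which library was left out. Without AP-3-84 replicate 3 the log2 fold changes were -1.48 for Csf1r, -2.52 for Mertk, -1.56 for Cd68, 2.00 for Adgre1, 1.31 for Itgam and 0.93 for Spi1. When the spread was estimated from the 6 p53 KO M0 libraries alone, 2 of 9 genes passed (Itgam and Mertk), and the adjusted p was 0.0519 for Adgre1, 0.0623 for Cd68, 0.0698 for Csf1r and 0.106 for Spi1.

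The wild-type M0 cultures gave a different picture under the same exposure. Csf1r there stood at 1321, 1884 and 2192 CPM in vehicle and 3536, 2356 and 1894 CPM with AP-3-84, and Adgre1 at 960.1, 1184 and 1148 CPM against 1006, 1057 and 1028 CPM. Both pairs of groups overlapped. The difference between the genotypes in the response to AP-3-84 was tested as an interaction, and 6 of 9 genes were called (background 17%): Csf1r (-1.74 on the log2 scale, adjusted p = 0.00482), Mertk (-2.24, adjusted p = 0.00674), Cd68 (-1.15, adjusted p = 0.0112), Adgre1 (1.73, adjusted p = 0.00519), Itgam (0.97, adjusted p = 0.0308) and Spi1 (0.81, adjusted p = 0.034). The calls of Itgam and Spi1 were lost on leaving out any of 8 and 9 single libraries of the 12, with adjusted p up to 0.108 and 0.150, and that of Cd68 without p53 KO M0 AP-3-84 replicate 2 (adjusted p = 0.0527). Without p53 KO M0 AP-3-84 replicate 3 all 6 were called, at -2.01 for Csf1r, -2.87 for Mertk, -1.61 for Cd68, 2.09 for Adgre1, 1.22 for Itgam and 1.05 for Spi1. Here too the larger values follow from which library was left out. The same test between the genotypes in M1 and in M2 called 0 of 9 genes in edgeR and in DESeq2 (backgrounds 0.00849% and 1.77%). At an unadjusted p under 0.05 edgeR gave 1 and 2 of 9, where 831 and 1815 of all 11779 genes passed. Without p53 KO M2 vehicle replicate 1 Lyz2 was called for M2 (1.63, adjusted p = 0.0106).

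Markers of proliferation, of fibroblasts and of neutrophils moved with these M0 groups. Summed CPM of 6 genes of dividing cells (among them Mki67 and Top2a) was 1366, 1382 and 1509 in wild-type M0 vehicle, 887, 1177 and 1336 with AP-3-84, 160, 186 and 142 in p53 KO M0 vehicle and 354, 1035 and 356 in p53 KO M0 with AP-3-84. Summed CPM of 5 fibroblast genes (among them Col1a1 and Dcn) was 22.5 to 26.2 in wild-type M0 vehicle, where Pdgfra was at 0, 276, 288 and 161 in p53 KO M0 vehicle and 133, 50.6 and 223 in p53 KO M0 with AP-3-84. Summed CPM of 10 neutrophil genes was 601 to 755 in p53 KO M0 vehicle and 309 to 507 in p53 KO M0 with AP-3-84. In wild-type M0 it was 283 to 513 in vehicle and 290 to 376 with AP-3-84. By their means, the p53 KO M0 vehicle libraries were low for dividing-cell genes against each of the other 3 M0 groups. They were high for fibroblast and neutrophil genes against the same groups. The part of these markers in the results was not tested. In bulk RNA, fewer cells of a type and less RNA per cell cannot be told apart.

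**Figure D3:**
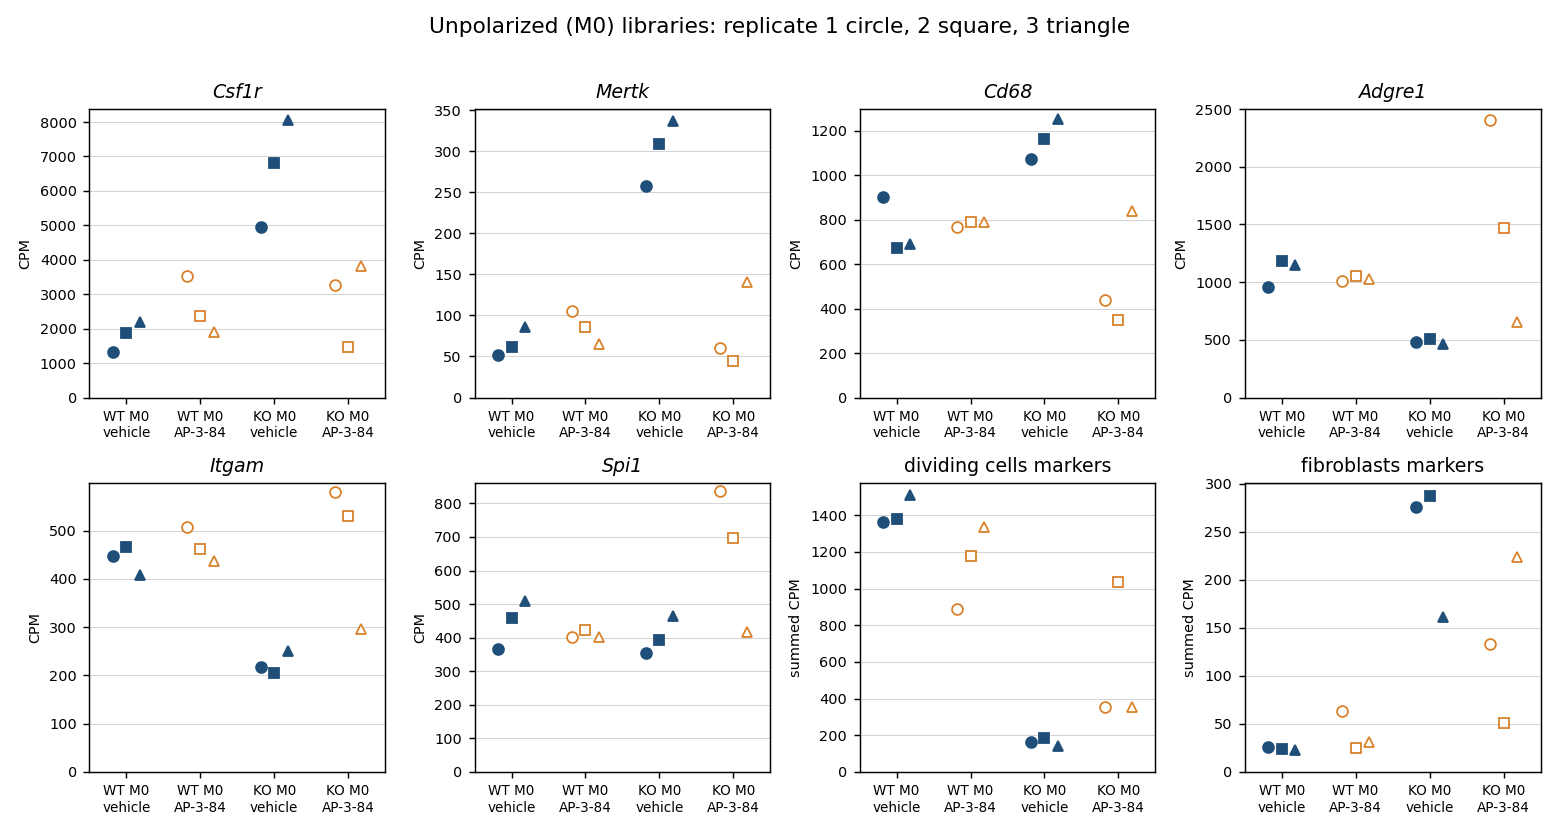
Level in each M0 library, in CPM on a linear axis, in wild type and p53 KO with vehicle or AP-3-84. Panels show Csf1r, Mertk, Cd68, Adgre1, Itgam and Spi1 and the summed dividing-cell and fibroblast markers. Circle, square and triangle stand for replicates 1, 2 and 3. With AP-3-84, p53 KO M0 replicate 3 (triangle) lies nearest to the vehicle libraries for Csf1r (3810.2 CPM), Mertk (141 CPM) and Adgre1 (657 CPM).

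The genotypes already differed in vehicle. In M0, p53 KO against wild type called 6 of 9 genes (3 higher, 3 lower; background 33.2%), and this comparison uses the same p53 KO M0 vehicle libraries as the AP-3-84 response above, so the opposite signs of the 2 sets of values are not independent. Csf1r was higher in p53 KO (mean 6604 ± 1564 against 1799 ± 442 CPM, SD, n = 3; log2 fold change 1.88, SE 0.30, adjusted p = 3.07e-05 in edgeR). Mertk was higher too (301 ± 40.6 against 66.5 ± 17.1 CPM, SD, n = 3; log2 fold change 2.18, SE 0.40, adjusted p = 0.000174 in edgeR), as was Cd68 (log2 fold change 0.62, SE 0.22, adjusted p = 0.0294). Adgre1 (log2 fold change -1.18) and Itgam (-0.97) were lower, and so was Csf2ra, at 0.499 of the fitted wild-type level (adjusted p = 0.00297, 0.00136 and 0.00171). The groups of all 6 were apart, though the share of all genes with these groups apart was not counted. The call of Cd68 was lost without wild-type M0 vehicle replicate 2 (adjusted p = 0.110) or 3 (0.0947) and without p53 KO M0 vehicle replicate 2 (0.0627) or 3 (0.0988). Spi1 (-0.14), Maf (0.03) and Lyz2 (-0.15) differed by less than 1 SE of 0.19, 0.34 and 0.34.

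In the polarized cultures every member called between genotypes was lower in p53 KO. In M1, 3 of 9 were called (background 11.6%). Lyz2 stood at 37549, 39656 and 40297 CPM in wild type and 11244, 20785 and 12342 CPM in p53 KO, without overlap (log2 fold change -1.41, SE 0.35, adjusted p = 0.0101). Adgre1 was lower (log2 fold change -0.94, SE 0.29, adjusted p = 0.034), and so was Csf2ra (log2 fold change -0.84, SE 0.24, adjusted p = 0.0191). None of these 3 calls withstood every omission. Adgre1 was lost without any of 5 of the 6 libraries (adjusted p 0.0593 to 0.136), Csf2ra without wild-type M1 vehicle replicate 3 (0.0877) or p53 KO M1 vehicle replicate 1 (0.0903) or 2 (0.0535), and Lyz2 without p53 KO M1 vehicle replicate 1 (0.0642) or 3 (0.0618). Scaling by total counts moved the median of all genes by 0.27 in this comparison, and Adgre1 (adjusted p = 0.075) and Csf2ra (0.0661) then missed the threshold. Maf in M1 was just outside it (adjusted p = 0.057) and was called by DESeq2 (-0.98, adjusted p = 0.0267).

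Markers of other cells separated the same M1 groups. Summed CPM in wild type and p53 KO was 442 to 571 and 996 to 2557 for 10 neutrophil genes, 16.6 to 41.9 and 89.9 to 123 for 5 fibroblast genes, and 71.5 to 80.8 and 127 to 200.2 for the monocyte genes Ly6c2, Ccr2 and Plac8. Their part in the M1 results was not tested.

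In M2, 1 of 9 genes was called (background 3.56%). Lyz2 stood at 24381, 20317 and 24818 CPM in wild type and 13941, 5626 and 3091 CPM in p53 KO (log2 fold change -1.62, SE 0.35, adjusted p = 0.0096). The groups were apart, and the lowest p53 KO value came from the library that stood apart. Without both M2 vehicle libraries that stood apart the log2 fold change was -1.22 (adjusted p = 0.149), and without p53 KO M2 vehicle replicate 2 or 3 alone the adjusted p was 0.0671 or 0.0605. Adgre1 in M2 was 875 ± 473 CPM in wild type and 443 ± 57.1 CPM in p53 KO (SD, n = 3) and just missed the threshold (log2 fold change -0.98, SE 0.29, adjusted p = 0.0571 in edgeR). Without wild-type M2 vehicle replicate 2 or 3 Adgre1 was called (adjusted p = 0.0293 or 0.0273), and without p53 KO M2 vehicle replicate 1 Csf2ra was (-0.95, adjusted p = 0.0109). The medians of the 9 genes were -0.14, -0.68 and -0.55 in M0, M1 and M2, beside 0.03, 0.00 and 0.01 over all genes.

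In wild-type cells the members called higher than in M0 differed between the stimuli. M1 against M0 called 2 of 9 genes (background 15.5%), both higher: Adgre1 (log2 fold change 1.25, SE 0.29, adjusted p = 0.00419) and Itgam (log2 fold change 0.91, SE 0.22, adjusted p = 0.00504). M2 against M0 called 3 of 9 (background 23.4%). Cd68 rose from 904, 674 and 691 CPM to 1364, 1407 and 1858 CPM (log2 fold change 1.03, SE 0.22, adjusted p = 0.000972), and Csf2ra rose from 164, 189 and 161 CPM to 353, 310.0 and 312 CPM (log2 fold change 0.92, SE 0.23, adjusted p = 0.00419). Maf fell from 977, 1066 and 952 CPM to 287, 118 and 115 CPM (log2 fold change -2.52, SE 0.36, adjusted p = 9.07e-06). The groups of these 5 called comparisons did not overlap, and the share over all genes was not counted here either. Without the M2 vehicle libraries that stood apart, Maf in M2 against M0 was at -3.10, and Adgre1 (-0.87, adjusted p = 0.0251) and Itgam (-1.02, adjusted p = 0.000701) were called lower as well. With the replicate number as a block, Itgam was also called (log2 fold change -0.59, adjusted p = 0.0385, against -0.57 and 0.0631 without the block). Scaling by total counts moved the median of all genes by -0.30 in M1 against M0 and by -0.21 in M2 against M0, and no call of a member changed direction. On that scale Cd68 was also called in M1 against M0 (-0.79, adjusted p = 0.0136) and Itgam in M2 against M0 (-0.79, adjusted p = 0.00457). Summed CPM of 6 genes of dividing cells was 1366 to 1509 in wild-type M0 vehicle, 591 to 674 in M1 and 547 to 808 in M2. The part of dividing cells in these results was not tested.

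Set directly against each other, the wild-type M1 and M2 cultures differed in 5 of 9 genes (background 25.5%). Adgre1 (1.58), Itgam (1.48) and Maf (2.33) were higher in M1 and Cd68 (-1.52) and Csf2ra (-0.82) higher in M2, as log2 fold changes of M1 over M2, with adjusted p from 4.22e-06 to 0.0085. Csf1r, Spi1, Mertk and Lyz2 were not called, at -0.64, -0.08, -0.90 and 0.76. Without the libraries that stood apart Mertk was called lower in M1 (-1.20, adjusted p = 0.0231).

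In p53 KO cells Csf1r and Mertk stood lower in M1 and in M2 than in M0. M1 against M0 called 7 of 9 genes (2 higher, 5 lower; background 44.5%) and M2 against M0 called 5 of 9 (1 higher, 4 lower; background 38%). These comparisons again share the p53 KO M0 vehicle libraries with those above. Csf1r, at 4947 to 8054 CPM in M0, was at 1332 to 1663 CPM after LPS and IFN-γ (log2 fold change -2.14, SE 0.30, adjusted p = 2.52e-06) and at 1268 to 2447 CPM after IL-4 and IL-13 (log2 fold change -1.83, SE 0.30, adjusted p = 2.41e-05). Mertk, at 257 to 337 CPM in M0, was at 23 to 32.7 CPM after the former (log2 fold change -3.45, SE 0.43, adjusted p = 5e-07) and at 35.2 to 95.8 CPM after the latter (log2 fold change -2.27, SE 0.40, adjusted p = 6.9e-05). Neither gene's M0 range met those of M1 or M2. Markers of other cells differed between these vehicle groups too. In M0, M1 and M2, summed CPM of dividing-cell genes was 142 to 186, 671 to 1485 and 654 to 1624. That of fibroblast genes was 161 to 288, 89.9 to 123 and 47.5 to 78.6, and that of neutrophil genes 601 to 755, 996 to 2557 and 352 to 3360. The part of these markers in the p53 KO results was not tested.

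The other members followed the wild-type order in part. Adgre1 (1.49) and Itgam (1.44) rose in p53 KO M1, while Cd68 (-1.02), Maf (-1.22) and Lyz2 (-0.88) fell there, with adjusted p from 6.76e-06 to 0.0392. In p53 KO M2, Csf2ra rose (1.36, adjusted p = 4.65e-05) and Maf (-2.14, adjusted p = 3.49e-05) and Lyz2 (-1.85, adjusted p = 0.000177) fell, and without p53 KO M2 vehicle replicate 3 and its wild-type counterpart these values were 1.62, -3.08 and -1.49, all still called. The fall of Lyz2 in p53 KO M1 was lost on leaving out any of 5 of the 6 libraries (adjusted p 0.0575 to 0.152). M1 against M2 in p53 KO called 6 of 9 genes (background 25.4%): Adgre1 (1.62), Itgam (1.42) and Lyz2 (0.97) higher in M1, and Cd68 (-0.83), Mertk (-1.18) and Csf2ra (-1.09) higher in M2. Maf just missed the threshold, at 418, 512 and 384 CPM in M1 and 102, 141 and 454 CPM in M2 (log2 fold change 0.91, SE 0.34, adjusted p = 0.0518). It was called by DESeq2 (0.92, adjusted p = 0.0217), and without p53 KO M2 vehicle replicate 3, which held the 454, it was at 1.85 (adjusted p = 4.73e-06). The Lyz2 and Cd68 groups overlapped, and 3 of these calls depended on single libraries: Lyz2 (adjusted p 0.152 to 0.179 without p53 KO M1 vehicle replicate 2 or p53 KO M2 vehicle replicate 2 or 3), Mertk (0.0504 to 0.256 without p53 KO M1 vehicle replicate 1 or 3 or p53 KO M2 vehicle replicate 1 or 2) and Cd68 (0.0562 without p53 KO M1 vehicle replicate 2).

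The difference between genotypes in the change from M0 was tested as an interaction. For M1, 2 of 9 genes were called, both lower in p53 KO (background 20.7%): Csf1r (-2.02, adjusted p = 0.000862) and Mertk (-2.86, adjusted p = 0.000703). edgeR did not call Lyz2 for M1, but DESeq2 did (-1.24, adjusted p = 0.0349). So did edgeR without p53 KO M1 vehicle replicate 2 (-1.55, adjusted p = 0.0314). With the spread of the groups compared alone, Lyz2 (-1.23, adjusted p = 0.00242) and Maf (-1.01, adjusted p = 0.000641) were called for M1. For M2, 4 of 9 were called, all lower (background 27.1%): Csf1r (-2.34, adjusted p = 0.000171), Mertk (-2.58, adjusted p = 0.00126), Cd68 (-1.22, adjusted p = 0.0046) and Lyz2 (-1.47, adjusted p = 0.0268). The p53 KO M0 vehicle libraries enter both tests, and the part of their dividing-cell and fibroblast markers, given above, was not tested here either. In the M2 test Lyz2 was lost without any of 5 single libraries (adjusted p 0.0507 to 0.0714). It was also lost without the 2 M2 libraries that stood apart (-1.06, adjusted p = 0.0897), and without those 2 Itgam was called (1.05, adjusted p = 0.0105).

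**Figure D4:**
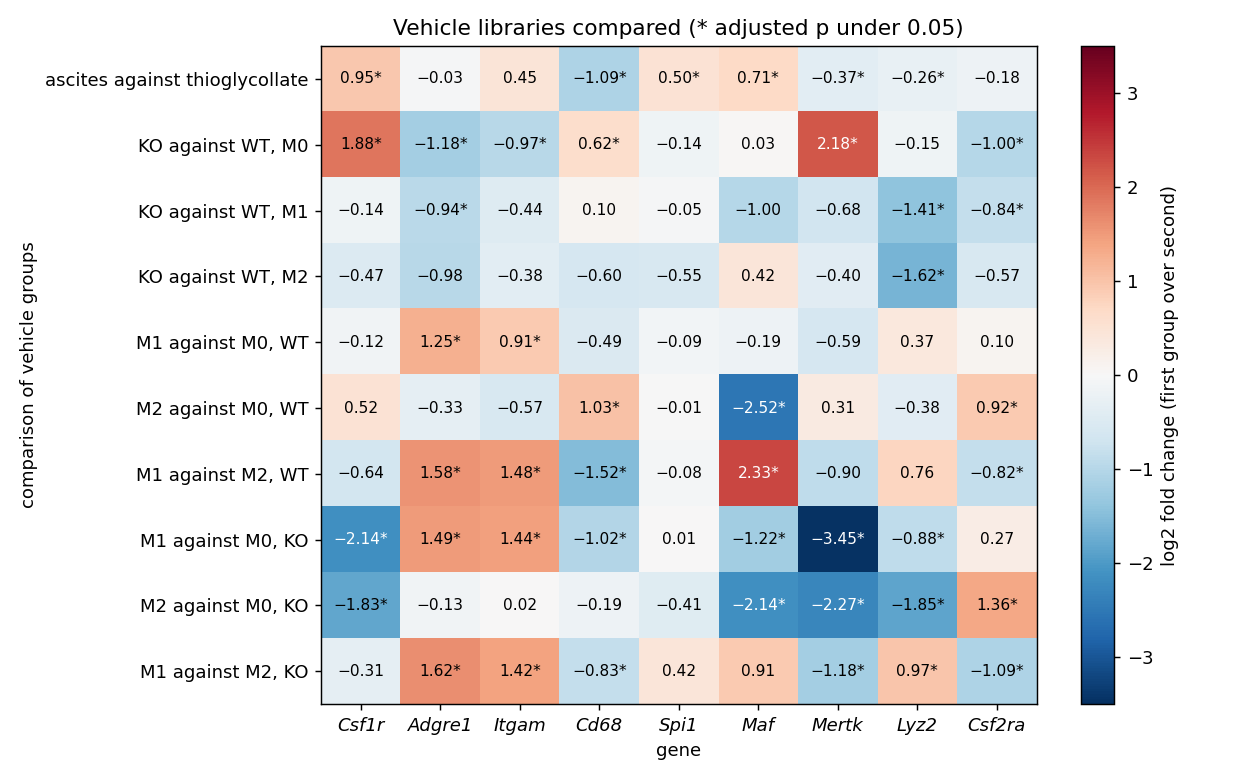
Log2 fold change of each of the 9 genes (columns) in the 10 comparisons between vehicle populations (rows), as a colour scale, with an asterisk where the adjusted p was under 0.05. Csf1r and Mertk carry asterisks wherever p53 KO M0 is one side of the comparison, from 1.88 and 2.18 over wild-type M0 to -2.14 and -3.45 in p53 KO M1.

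Ascites and thioglycollate macrophages in vehicle differed in 6 of 9 genes (3 higher, 3 lower in ascites; background 33.7%). Csf1r was higher in ascites, at 2175, 2111 and 2184 against 1124, 1122 and 1107 CPM (log2 fold change 0.95, SE 0.09, adjusted p = 3.89e-07). Spi1 was higher, at 269, 284 and 285 against 192, 203 and 198 CPM (log2 fold change 0.50, SE 0.09, adjusted p = 0.000288), and Maf was higher as well (log2 fold change 0.71, SE 0.10, adjusted p = 2.04e-05). Cd68 was lower, at 751, 757 and 854 against 1657, 1717 and 1659 CPM (log2 fold change -1.09, SE 0.06, adjusted p = 1.75e-10). Mertk (log2 fold change -0.37, SE 0.07, adjusted p = 0.000242) and Lyz2 (log2 fold change -0.26, SE 0.08, adjusted p = 0.0163) were lower too. No group of these 6 genes overlapped its counterpart, but how many of all genes were apart in this way was not counted. Lyz2 lost its call without ascites vehicle replicate 2 (adjusted p = 0.0762) or thioglycollate vehicle replicate 2 (0.0517) and with total counts as the scale (0.146). With all 48 libraries in one fit 2 of the 6 were called, Csf1r and Cd68, while Spi1 (adjusted p = 0.0502), Maf (0.108), Mertk (0.443) and Lyz2 (0.573) were not.

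Adgre1, on whose protein both populations were sorted, stood at 234, 241 and 243 CPM in ascites and 249.9, 254 and 229 CPM in thioglycollate macrophages and overlapped (log2 fold change -0.03, SE 0.06, adjusted p = 0.780). Itgam, at 431, 436 and 394 CPM against 291, 304 and 331 CPM, did not overlap but was not called by edgeR (0.45, SE 0.18, adjusted p = 0.0861). It was called by DESeq2 (adjusted p = 0.0325), with total counts as the scale (0.0289) and with the spread of the groups compared alone (1.71e-05). Csf2ra was not called (-0.18, SE 0.36, adjusted p = 0.797). Markers of other cells differed between the populations. Summed CPM of Ly6c2, Ccr2 and Plac8, genes of monocytes, was 468 to 501 in ascites and 6.80 to 10.8 in thioglycollate macrophages. Summed CPM of 8 epithelial, mesothelial and ID8 tumour cell genes was 211 to 249 in ascites and 2.98 to 4.98 in thioglycollate macrophages, with Epcam and Msln at 0 in the latter, and that of 6 genes of dividing cells was 216 to 234 and 27.5 to 30.5. Their part in the results was not tested. Summed CPM of 6 resident peritoneal macrophage genes was 92.6 to 97.9 in ascites and 104 to 107 in thioglycollate macrophages.

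Genes that work with these 9 were read from 6 lists of 69 genes: the colony-stimulating factor axis, macrophage transcription factors, integrins and adhesion, uptake of apoptotic cells, lysosomal glycoproteins with lysozyme, and other macrophage surface and effector markers. With AP-3-84, 10 of 64 tested list genes rose and 19 fell in p53 KO M0, where 20.7% of all genes were called, and 6 of 67 rose and 14 fell in thioglycollate macrophages, where 4.32% were. The medians of the list genes were -0.44 and -0.08, beside -0.03 and 0.03 over all genes. In p53 KO M0 the colony-stimulating factor axis had 0 of 11 higher and 3 lower, among them Csf2rb2 (log2 fold change -1.70, adjusted p = 0.00501) and Csf2rb (-1.22, adjusted p = 0.00729). Csf2rb encodes the beta chain shared with Csf2ra, and Csf2rb2 the related beta chain of the mouse IL-3 receptor. Of 11 integrin and adhesion genes 5 rose and 3 fell: Itgal, the alpha chain of LFA-1, rose to 529 ± 288 CPM, against 88.6 ± 8.98 CPM in vehicle (SD, n = 3), a log2 fold change of 2.58 (adjusted p = 2.39e-06 in edgeR) while Itgb5 fell (-1.33). Of 6 lysosomal genes 0 rose and 4 fell, with Scarb2 (-1.27) and Cd63 (-0.97) the largest. Of 8 uptake genes 1 rose (Elmo1, 1.38) and 3 fell, with Stab1 at -1.29. Of 15 transcription factors 2 rose and 5 fell, with Ets2 at 2.85 (adjusted p = 1.2e-05) and Mef2c at -1.72. Among 13 other markers 2 rose and 1 fell, with Aif1, the microglia and macrophage marker Iba1, at 1.97 and the mannose receptor Mrc1 at -1.36.

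In thioglycollate macrophages AP-3-84 lowered 6 of 13 other macrophage markers and raised 1, with Cx3cr1, the fractalkine receptor, at -0.82 (adjusted p = 6.06e-05) and Fcgr1, the high-affinity IgG receptor, at -0.73 (adjusted p = 5.32e-05). Axl, a receptor of the same family as Mertk, fell to 20.4 ± 0.862 CPM, against 33.1 ± 0.115 CPM in vehicle (SD, n = 3), a log2 fold change of -0.70 (adjusted p = 8.5e-05 in edgeR), and the transcription factor gene Cebpb rose (0.55, adjusted p = 0.000867). In ascites macrophages 2 list genes of 67 rose and 1 fell: Ets2 (0.58), Klf4 (0.50) and Fcgr1 (-0.31). In wild-type M2, 0 of 64 rose and 2 fell, Jak2 (-0.86) and Cd14 (-1.28). edgeR called none of the 64 in wild-type M0, wild-type M1, p53 KO M1 and p53 KO M2.

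Between vehicle populations the number of list genes called ran widely. Ascites against thioglycollate gave 29 of 67 higher and 27 lower (background 33.7%), with Axl at 3.92, Fcgr1 at 3.34 and the ligand gene Csf1 at 2.91 as log2 fold changes, and with the bridging protein gene Mfge8 at -5.19. p53 KO against wild type gave 22 of 64 higher and 8 lower in M0 (background 33.2%), 5 and 14 in M1 (11.6%), and 0 and 6 in M2 (3.56%). In M0 Axl (3.06), Csf1 (2.60) and Mef2c (2.19) were higher in p53 KO and Ets2 was lower (-3.09). In wild type, M1 against M0 gave 6 higher and 7 lower (background 15.5%), with Itgal at 2.30 and Mrc1 at -2.84, and M2 against M0 gave 23 higher and 13 lower (23.4%), with Itgax (CD11c) at 7.99, the STAT5 target Cish at 7.00 and Cx3cr1 at -5.05. In p53 KO, M1 against M0 gave 11 higher and 32 lower (44.5%), with Gas6, a Mertk ligand, at -4.48, and M2 against M0 gave 16 higher and 26 lower (38%), with Gas6 at -3.38.

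Over the 36 bone marrow-derived libraries, which share treatments, culture and depth, the members fell into patterns that are given as a description. Adgre1 and Itgam ran together (Pearson r = 0.943 of log2 CPM), as did Csf1r and Mertk (r = 0.879), while Cd68 ran against Itgam (r = -0.697) and Adgre1 (r = -0.678). The 12 peritoneal libraries did not share all of these patterns: there r was 0.156 for Adgre1 and Itgam, -0.582 for Csf1r and Mertk, -0.817 for Itgam and Cd68 and -0.142 for Adgre1 and Cd68. Among 8422 genes the most alike to Csf1r were Arhgap45 (r = 0.911) and Ifngr1 (0.908), and to Mertk Scarb2 (0.937) and Ifngr1 (0.935). Hcls1 was the most alike to both Adgre1 (0.966) and Itgam (0.961), followed by Arhgdib (0.958) and Klra2 (0.948). Dusp3 (0.921) and Cd84 (0.920) were nearest to Cd68, Hpgds (0.917) and Gng2 (0.911) to Maf, and Atp5l (0.885) and Ndufb2 (0.883) to Csf2ra. Spi1 had the weakest likeness, with Egln2 (0.817) and Apbb1ip (0.795). Lyz1 was the most alike to Lyz2 (0.951), the near copy with which it shares sequence, and Pitpna came next (0.839). With total counts as the scale, 14 of these 18 pairs were the same.

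Genes that overlap a member could share its reads, since whether counting used strand is not given. Counts of Gm49368, on the strand of Itgam, came to 1.88% of those of Itgam, and of Hmgxb3, opposite Csf1r, to 0.483% of those of Csf1r. The overlapping genes of Maf and Mertk came to at most 0.041% of the member's counts, and none overlapped Adgre1, Cd68, Spi1, Lyz2 or Csf2ra.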

How the data were processed

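Raw counts per gene were deposited by the authors as one table of 48 libraries. Per the submitters' processing notes the tools were RSEM, Bowtie2 and DESeq2. Their versions and roles, the genome build and any rounding of estimates were not given in the sources used here. Per the labels' protocols, 100 ng RNA gave QuantSeq forward libraries read as 75-base single reads.

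The 12 peritoneal and 36 bone marrow-derived libraries were fitted separately with edgeR 4.0.16 (R 4.3.3, limma 3.58.1): filterByExpr, TMM, robust quasi-likelihood tests with 1 mean per group, and Benjamini-Hochberg adjustment over the 16955 and 11779 genes tested. There were 24 comparisons: 8 of treatment, 10 between vehicle populations and 6 interactions. Replicates of a group never matched within sampling noise (chi-square per gene 2.51 to 38.7 over 48 pairs). The script was tested on simulated counts. Alternatives were DESeq2 1.42.0, other scalings, no filter, other sets of libraries, a replicate block and leaving out each library.

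Replicate numbers come from the labels, which do not say what they share. Correlations of same-numbered libraries ran from -0.327 to 0.375, and every one passed 0.1 in 1 of 18 comparisons, M2 against M0 in wild type (0.208, 0.114 and 0.208).

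Members and lists were chosen with earlier results of these data known. Named were the 9 members, the 2 genes most alike to each (Pearson r of log2 CPM, prior count 2, average log2 CPM of at least 3), and, of each list, at most 2 called genes per comparison by size of change. Marker lists of B cells, T cells, dendritic cells, and eosinophils and mast cells summed to at most 36.9 CPM in any library. One further marker gene is not reported here, so the monocyte list was summed over 3 genes.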

Additional observations from a re-analysis of the deposited data

Results flagged for a closer look

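The change of 6 genes with AP-3-84 differed between p53 KO and wild-type M0 cultures by the interaction test of edgeR, as differences of log2 fold changes: Csf1r -1.74 (adjusted p = 0.00482), Mertk -2.24 (adjusted p = 0.00674), Cd68 -1.15 (adjusted p = 0.0112), Adgre1 1.73 (adjusted p = 0.00519), Itgam 0.97 (adjusted p = 0.0308) and Spi1 0.81 (adjusted p = 0.034). The change from M0 to M1 in vehicle differed between the genotypes for Csf1r (-2.02, adjusted p = 0.000862) and Mertk (-2.86, adjusted p = 0.000703). The change from M0 to M2 differed for Csf1r (-2.34, adjusted p = 0.000171), Cd68 (-1.22, adjusted p = 0.0046), Mertk (-2.58, adjusted p = 0.00126) and Lyz2 (-1.47, adjusted p = 0.0268). All 12 of these differences use the p53 KO M0 vehicle libraries, so they are not independent of one another. They are not equally firm. With AP-3-84, Itgam and Spi1 were lost on leaving out any of 8 and 9 single libraries (adjusted p up to 0.108 and 0.150). Cd68 was lost there without p53 KO M0 AP-3-84 replicate 2 (0.0527). Lyz2 in the change to M2 was lost without any of 5 single libraries.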

How the results depend on the processing

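Of 65 calls among 216 pairs of a member and a comparison, 41 held in every alternative, 16 were lost on leaving out a single library and 0 changed direction. The replicate block lost 0 of the 65 calls and gained 1, Itgam in M2 against M0 in wild type (-0.59, adjusted p = 0.0385), where the count went from 3 to 4, and it changed no other call. DESeq2 lost 0 and gained 5, and its count was 2 for p53 KO against wild type in M2.

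Without a filter on low counts the number of members called was 1 for AP-3-84 in ascites, 5 in thioglycollate, 1 in wild-type M0 and 2 in p53 KO M2; 5 and 4 for p53 KO against wild type in M1 and M2; 4, 5 and 8 for M1 against M0, M2 against M0 and M1 against M2 in wild type; and 1, 2 and 4 for the interactions of ascites with thioglycollate, of genotype with AP-3-84 in M2 and of genotype with M1. With all 48 libraries in one fit it was 0 for AP-3-84 in thioglycollate, 2 for ascites against thioglycollate and 2 for p53 KO against wild type in M2. Fitting only the groups compared gave 1, 2 and 2 for AP-3-84 in wild-type M0, wild-type M1 and p53 KO M0, 0 for p53 KO against wild type in M2, 4 for M1 against M0 in wild type and 4 for the interaction of genotype with M1. Total counts as the scale gave 1 for p53 KO against wild type in M1. Leaving out the M2 vehicle libraries that stood apart, an alternative chosen after seeing the data, gave 0 for p53 KO against wild type in M2 and 5 for M2 against M0 in wild type. The causes were not tested. The share of all genes called was kept for the main fit only. Counts of members under any alternative, here, above or with single libraries left out, therefore have no background beside them. They show only how the calls depend on the setting.

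Leaving out single libraries gave ranges of 0 to 2 for AP-3-84 in p53 KO M2, 0 to 2 for p53 KO against wild type in M1, 0 to 2 for the same in M2, 3 to 5 for M2 against M0 in wild type, 0 to 1 for the interaction of ascites with thioglycollate, 3 to 6 for that of genotype with AP-3-84 in M0 and 0 to 1 for the same in M2. Bone marrow-derived libraries were shallower than peritoneal ones and more scattered (biological coefficient of variation 0.225 against 0.168), which limits the size of change that could be called there.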
